A study of Mus musculus with 16 samples.

Results

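The MAP kinase phosphatases are dual-specificity phosphatases, enzymes that remove phosphate from both the threonine and the tyrosine of an activated MAP kinase and so switch it off. They were picked by gene symbol: the rule named 10 genes, DUSP1, DUSP2, DUSP4, DUSP5, DUSP6, DUSP7, DUSP8, DUSP9, DUSP10 and DUSP16. Of these, 9 were in the table of 18132 genes, and DUSP5 was not analysed here. The rule uses no measured value, but the set was chosen with earlier results of these data known. Many of these genes are themselves induced by the kinases that their products inactivate, so that their transcripts are commonly read as a trace of MAP kinase activity. DUSP1, DUSP2 and DUSP4 encode inducible nuclear enzymes, DUSP6, DUSP7 and DUSP9 encode cytoplasmic enzymes that prefer ERK, and DUSP8, DUSP10 and DUSP16 encode enzymes that prefer the stress kinases JNK and p38. MEKK1, encoded by MAP3K1, is a kinase upstream of JNK, p38 and ERK, and the comparisons below ask whether the transcripts of the phosphatases depended on it or on factors from tumor cells.

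Primary fibroblasts were grown from the inguinal mammary glands of female 129S6 mice aged 8 to 10 weeks that were MEKK1+/+ or MEKK1-/-. They were left untreated in DMEM with serum or exposed for 8 h to DMEM that MDA-MB-231 cells, a line of human breast cancer, had conditioned, called conditioned medium here. Each of the 4 combinations of genotype and medium had 4 Illumina Mouse 8 arrays, 16 in all. Cultures outnumber the 3 mice of each genotype, so some share a mouse, and p-values measure the spread between cultures. The values are probe intensities that the core facility had normalized, log2 transformed and quantile normalized here, and a level is given below as the normalized log2 intensity. The sequence each probe reads was not analysed here, and levels of different genes are not set against each other.

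Array medians lay between 114 and 170.1 in the deposited units. MAP3K1 did not fall where MEKK1 should be missing, so genotype below is as labelled. On untreated arrays labelled MEKK1-/- it was higher than in MEKK1+/+ by 0.53 on the log2 scale, without overlap of the groups (standard error 0.15, limma unadjusted p = 0.00296, adjusted p = 0.465). With conditioned medium it was higher by 0.33, with overlap (limma unadjusted p = 0.0406, adjusted p = 0.605). Neither difference passed the adjusted threshold. Of 10 fibroblast markers, 9 were above the background level on every array. Of 16 macrophage markers, 9 were above it on every array, 2 on none and 0 were at a value of 0. Of 8 epithelial markers, 2 were above it on every array, and both arrays numbered 1 that are labelled MEKK1-/- stood apart, with a log2 summed level of 13.27 untreated and 13.02 with conditioned medium against 10.13 to 10.71 on the other 14 arrays. The sum of 8 endothelial markers was also highest on these arrays, at 10.64 and 10.69 against 9.96 to 10.25. In such cultures fewer cells of a type and less RNA per cell cannot be told apart.

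Sequences upstream of the genes show how the members differ in the DNA next to their start sites. RefSeq windows of 250 bases directly before a transcript start were at hand for 7 of the 9 genes, all but DUSP4 and DUSP9, in build GRCm38.p6. That start is the outer end of the annotated gene for DUSP1, DUSP2, DUSP6 and DUSP10, and lies 72, 623 and 14435 bases inside it for DUSP7, DUSP8 and DUSP16. The cyclic AMP response element TGACGTCA, a palindrome and thus the same on both strands, was in 2 of the 7 windows and in 1.55% of 32851 windows of that length. The DUSP1 window holds it 1 time, with its first base 143 bases before the start, and the DUSP8 window 2 times, at 107 and 63 bases. The window of DUSP6, the member with the widest spread between cultures, holds none and is shown beside them. Matches of 8 letters are printed in capitals, 5′ to 3′ on the strand of the gene.
DUSP1, chr17:26508473-26508722, minus strand: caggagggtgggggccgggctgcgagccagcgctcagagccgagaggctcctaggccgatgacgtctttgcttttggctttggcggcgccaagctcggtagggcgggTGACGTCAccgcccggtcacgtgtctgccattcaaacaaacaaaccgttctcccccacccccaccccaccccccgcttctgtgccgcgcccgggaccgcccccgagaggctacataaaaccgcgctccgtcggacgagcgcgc
DUSP8, chr7:142095285-142095534, minus strand: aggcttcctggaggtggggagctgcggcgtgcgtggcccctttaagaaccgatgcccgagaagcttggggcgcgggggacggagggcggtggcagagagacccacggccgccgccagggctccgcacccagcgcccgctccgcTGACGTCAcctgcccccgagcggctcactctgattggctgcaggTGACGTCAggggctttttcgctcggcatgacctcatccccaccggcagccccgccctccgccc
DUSP6, chr10:99262981-99263230, plus strand: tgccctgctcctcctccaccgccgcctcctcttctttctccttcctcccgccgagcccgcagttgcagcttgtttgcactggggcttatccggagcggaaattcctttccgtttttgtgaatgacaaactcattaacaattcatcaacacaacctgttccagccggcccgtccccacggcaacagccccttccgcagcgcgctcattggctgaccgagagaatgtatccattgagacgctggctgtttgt
The AP-1 motif, written TGACTCA or TGAGTCA on either strand, was in 0 of the 7 windows and in 4.46% of all windows. The CArG box bound by serum response factor and the NF-kB consensus were also in 0 of 7, against 1.47% and 7.25% of all windows.

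DUSP1, DUSP4, DUSP6, DUSP7, DUSP8 and DUSP16 were measured above background on all 16 arrays. Background was set on each array by the 99th percentile of 1075 olfactory receptor genes, which are silent in fibroblasts, and lay between 7.20 and 7.34. Of all 18132 genes, 6926 were above it on every array and 8251 on none. DUSP10, a phosphatase of JNK and p38, was above it on 9 of the 16 arrays. DUSP2, an inducible phosphatase known from activated immune cells, and DUSP9, known from placenta, were above it on 0 arrays, with levels from 6.83 to 7.25 and from 6.60 to 7.12. For those 2 genes, and for DUSP10 on 7 arrays, a change below the background level could not be seen.

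**Figure D1:**
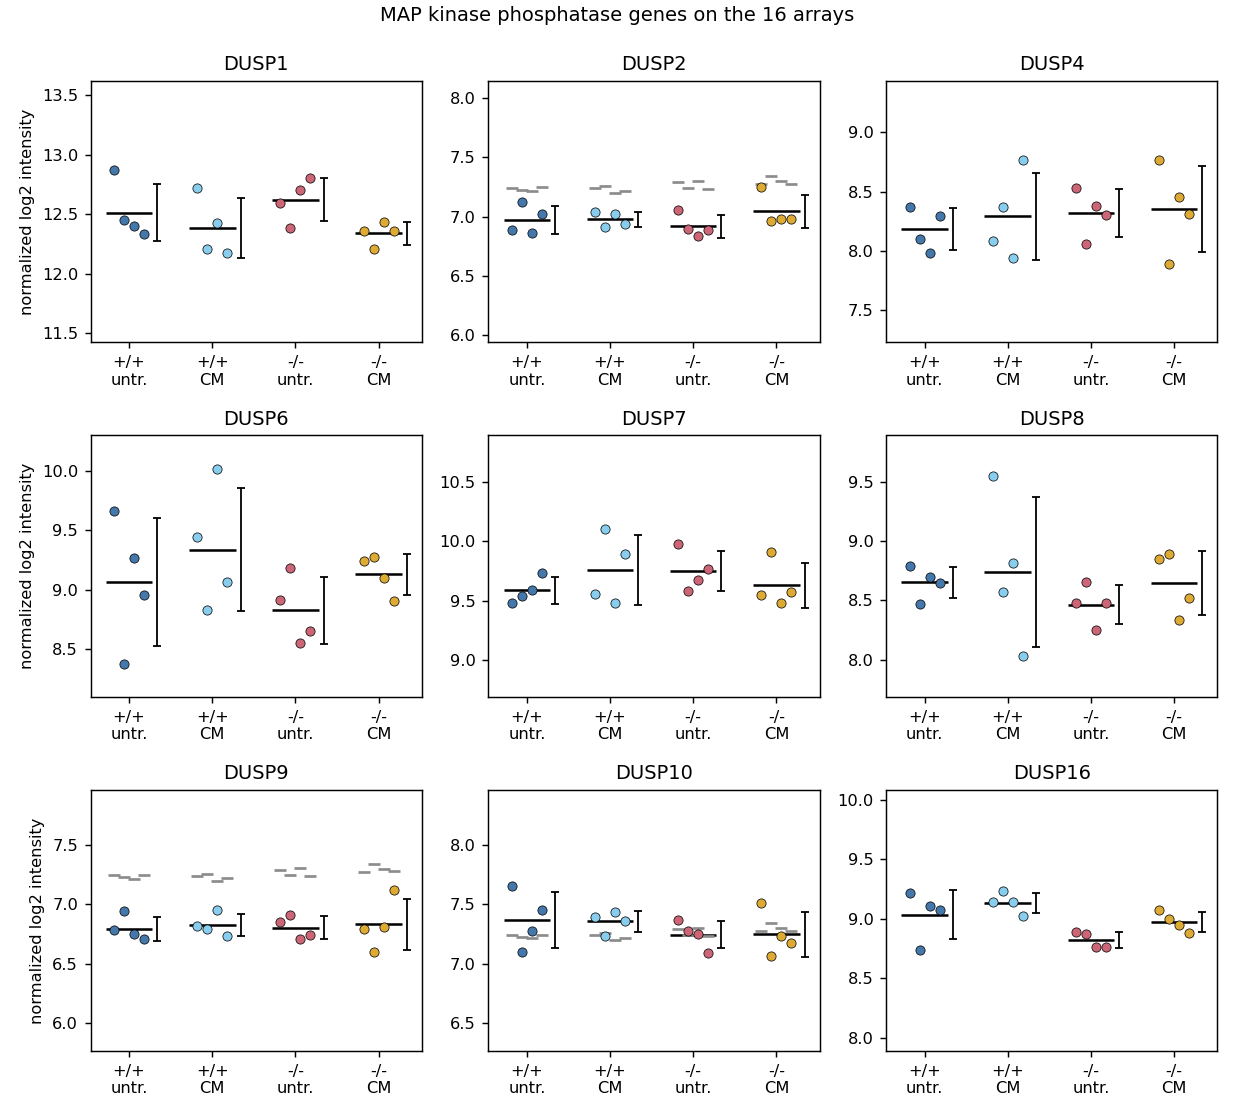
Normalized log2 intensity (y axis, each panel spanning 2.2 log2 units) of the 9 phosphatase genes in the 4 groups, +/+ for MEKK1+/+, -/- for MEKK1-/- and untr. for untreated, CM for conditioned medium. Points are arrays in the order of replicates 1 to 4, bars are means, brackets are ± 1 SD (n = 4), and grey dashes, drawn for DUSP2, DUSP9 and DUSP10, are the olfactory receptor level of each array. The 2 groups overlap for every gene in each of the 4 comparisons, DUSP6 and DUSP8 spread most, and DUSP2 and DUSP9 stay below the dashes.

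DUSP1, the immediate early phosphatase that acts on p38, JNK and ERK in the nucleus, was at 12.87, 12.45, 12.40 and 12.33 in replicates 1 to 4 of untreated MEKK1+/+ cells. With conditioned medium it was at 12.72, 12.20, 12.43 and 12.17 in these cells. The ranges overlap, and the replicate 1 arrays were the highest in both groups. On the untreated arrays labelled MEKK1-/- it was at 12.59, 12.38, 12.70 and 12.81, and with conditioned medium at 12.35, 12.21, 12.44 and 12.36. There 3 of the 4 exposed arrays were below all 4 untreated ones. The log2 change with conditioned medium was -0.13 in MEKK1+/+ cells (standard error 0.13, limma adjusted p = 0.733) and -0.28 in cells labelled MEKK1-/- (standard error 0.13, limma adjusted p = 0.312, 2-sided exact permutation p = 0.0571). Neither change passed the threshold. In MEKK1+/+ cells the size depended on the scaling and on single arrays, with -0.52 in the values as deposited (limma adjusted p = 0.131), -0.24 on median-centred arrays and -0.25 to -0.01 in fits without 1 array.

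The arrays labelled MEKK1-/- deviated together by replicate number, with correlations from 0.219 to 0.505 across genes. Arrays of the same number and medium but different genotype, which share no mouse, had correlations from -0.575 to 0.234. With the replicate number as a block in each genotype the standard error for DUSP1 shrank to 0.066. The MEKK1+/+ arrays, with correlations from -0.04 to 0.576, did not all deviate together but were blocked alike and enter this standard error. In that fit the fall of 0.28 passed the test, with a log2 change of -0.28, a 95% interval from -0.43 to -0.13 and a limma adjusted p of 0.0279. DUSP1 was then the 1 member called of 9, where 7.93% of all genes were called and 3.91% as lower. It was lower in 4 of 4 pairs, by -0.24, -0.17, -0.27 and -0.45 for replicates 1 to 4. The share of all genes whose 4 pairs agree in sign was not counted. Without pair 2 the call was held (limma adjusted p = 0.0495), and it was lost without pair 1 (0.0648), pair 3 (0.0933) or pair 4 (0.152), with changes from -0.32 to -0.23. In MEKK1+/+ cells DUSP1 was lower in 3 of 4 pairs, by -0.14, -0.25 and -0.16, and replicate 3 differed by 0.02 (limma adjusted p = 0.320 with the block, a fit that called 8.17% of all genes and 4.22% as lower). The difference between the responses of the 2 genotypes was -0.15 in the blocked fit, with a 95% interval from -0.36 to 0.06, and did not pass the test (limma adjusted p = 1.00).

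**Figure D2:**
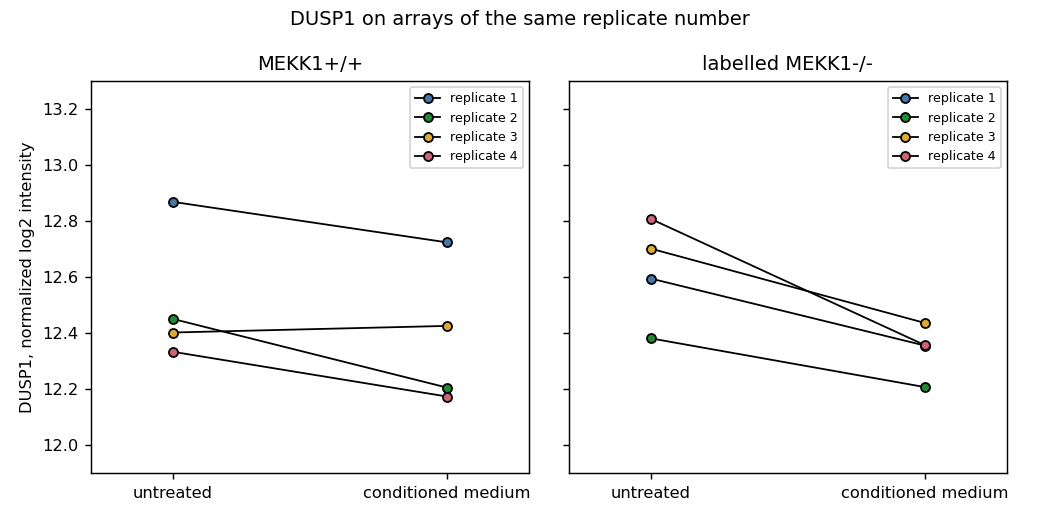
Normalized log2 intensity of DUSP1 (y axis, not starting at 0) on untreated and exposed arrays, with a line for each replicate number and a panel for each genotype; single arrays are shown, so there are no error bars. All 4 lines fall on the arrays labelled MEKK1-/- and 3 of 4 fall in MEKK1+/+ cells, where replicate 1 lies highest.

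DUSP4, an inducible nuclear phosphatase of ERK and JNK, was at 8.37, 8.10, 7.98 and 8.29 on untreated MEKK1+/+ arrays and at 8.09, 8.37, 7.94 and 8.77 with conditioned medium. On arrays labelled MEKK1-/- it was at 8.53, 8.06, 8.38 and 8.31 untreated and at 8.76, 7.89, 8.45 and 8.31 with conditioned medium. The 2 highest values belonged to exposed arrays of either genotype, and the lowest was also an exposed one. The log2 changes with conditioned medium were 0.10 and 0.03, each with a standard error of 0.19 (limma adjusted p = 0.876 and 0.968). Over the 16 arrays its level had an r of 0.54 with the epithelial sum and of 0.57 with the endothelial sum (permutation p = 0.0201 and 0.0185, both 0.181 after adjustment over 36 relations), with rho of 0.38 and 0.52 (permutation p = 0.145 and 0.0411, adjusted p = 0.424 and 0.268). Without the 2 arrays farthest from the median these r were 0.22 and 0.25, so these 2 relations rest on those arrays. With the sum of 6 fat markers r was -0.52 and rho -0.51 (permutation p = 0.0371 and 0.0447, adjusted p = 0.223 and 0.268). Without the 2 arrays farthest from the median of that sum, r was -0.41. Without both arrays labelled MEKK1-/- and numbered 1, where the epithelial and endothelial sums are highest, the log2 change in cells labelled MEKK1-/- was -0.03. The part of these markers in the level of DUSP4 was not tested.

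DUSP6, the cytoplasmic phosphatase of ERK that ERK signaling itself induces, spread most of the 9 genes, with an SD of 0.41 over all arrays and also of 0.41 within groups. It was at 9.66, 8.38, 9.26 and 8.95 on untreated MEKK1+/+ arrays and at 9.44, 8.83, 10.02 and 9.06 with conditioned medium. On arrays labelled MEKK1-/- it was at 8.91, 9.18, 8.55 and 8.66 untreated and at 9.24, 9.27, 9.10 and 8.90 with conditioned medium. Both extremes lay in MEKK1+/+ cells, the lowest in an untreated culture and the highest in an exposed one. The log2 change with conditioned medium was 0.27 in MEKK1+/+ cells and 0.30 in cells labelled MEKK1-/-, each with a standard error of 0.26 (limma adjusted p = 0.712 and 0.676). It was higher in 4 of 4 pairs of arrays labelled MEKK1-/-, by 0.33, 0.09, 0.54 and 0.25, and with the block its limma adjusted p was 0.251. Without 1 array the change in MEKK1+/+ cells ran from 0.04 to 0.47 and that in cells labelled MEKK1-/- from 0.21 to 0.42. The genotype difference in untreated cells, -0.24, ran from -0.46 to -0.04. The intervals reached 0.83 and 0.86, so a rise of up to 1.8-fold in normalized intensity remains compatible with these arrays. Background in these intensities was not removed here, so the bound is not one on the transcript.

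DUSP7, the close relative of DUSP6, was at 9.48, 9.53, 9.59 and 9.74 on untreated MEKK1+/+ arrays and at 9.55, 10.10, 9.48 and 9.90 with conditioned medium. On arrays labelled MEKK1-/- it was at 9.97, 9.58, 9.67 and 9.77 untreated and at 9.55, 9.91, 9.48 and 9.57 with conditioned medium. Its log2 change with conditioned medium was 0.17 in MEKK1+/+ cells (limma adjusted p = 0.615) and -0.12 in cells labelled MEKK1-/- (limma adjusted p = 0.771). The difference between these responses, -0.29, was the largest in size among the 9 members and did not pass the test (standard error 0.19, limma unadjusted p = 0.142, adjusted p = 1.00).

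DUSP8, a phosphatase of JNK and p38, was at 8.79, 8.47, 8.70 and 8.65 on untreated MEKK1+/+ arrays and at 9.55, 8.57, 8.81 and 8.03 with conditioned medium. The exposed cultures held both its highest and its lowest value of the 16 arrays. On arrays labelled MEKK1-/- it was at 8.48, 8.65, 8.25 and 8.48 untreated and at 8.85, 8.89, 8.33 and 8.52 with conditioned medium. The log2 changes were 0.09 and 0.18 (standard error 0.23 for both, limma adjusted p = 0.922 and 0.811), and in cells labelled MEKK1-/- all 4 pairs were higher with conditioned medium, by 0.37, 0.24, 0.08 and 0.04.

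DUSP16, which acts on JNK and p38, was at 9.21, 8.73, 9.11 and 9.08 on untreated MEKK1+/+ arrays and at 9.14, 9.23, 9.14 and 9.02 with conditioned medium. On arrays labelled MEKK1-/- it was at 8.89, 8.87, 8.77 and 8.76 untreated and at 9.08, 8.99, 8.95 and 8.88 with conditioned medium. Apart from replicate 2 of the untreated MEKK1+/+ cells, every untreated MEKK1+/+ array lay above all 4 untreated arrays labelled MEKK1-/-. Its log2 difference between genotypes in untreated cells was -0.21 (standard error 0.087), the 1 value of the members with an unadjusted p under 0.05 in any comparison of the fit without a block (limma unadjusted p = 0.0279, adjusted p = 0.519, 2-sided exact permutation p = 0.143). In that comparison 9.27% of all genes had an unadjusted p under 0.05. With conditioned medium the difference was -0.16 (limma adjusted p = 0.653). The log2 change with conditioned medium was 0.10 and 0.15 (limma adjusted p = 0.671 and 0.438), higher in 4 of 4 pairs of arrays labelled MEKK1-/-, by 0.19, 0.12, 0.18 and 0.11.

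The members at or near background gave small fitted changes. DUSP2, DUSP9 and DUSP10 had log2 changes with conditioned medium of 0.00, 0.03 and -0.01 in MEKK1+/+ cells and of 0.13, 0.03 and 0.00 in cells labelled MEKK1-/-. Of these, 0 passed the test. DUSP2, below background on every array, was also higher in 4 of 4 pairs of arrays labelled MEKK1-/-, by 0.19, 0.07, 0.15 and 0.09. Such a count for a member, without the share over all genes, is therefore no sign of a response.

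In the fit without a block, 0 of the 9 phosphatase genes passed a limma adjusted p of 0.05 for conditioned medium in MEKK1+/+ cells, where 5.01% of all genes did, and 0 of 9 in cells labelled MEKK1-/-, where 4.69% did. With the replicate number as a block in both genotypes, 1 of 9 passed in cells labelled MEKK1-/-, DUSP1, where 7.93% of all genes did. Between genotypes the count was 0 of 9 in untreated cells, with 0% of all genes called and 9.27% at an unadjusted p under 0.05, and 0 of 9 with conditioned medium, with 0.00552% called. For the difference between the responses it was 0 of 9, with 0% of all genes called and 2.61% at an unadjusted p under 0.05. Groups without any overlap were found for 0 of 9 members in each of the 4 comparisons, against 9.7%, 10.4%, 4.61% and 4.17% of all genes. With conditioned medium, 7 of 9 members had a fitted change above 0 in each genotype, with median log2 changes of 0.09 and 0.03 beside -0.0018 and -0.0042 over all genes. Counted there are DUSP2 and DUSP9, below background on every array, and in cells labelled MEKK1-/- also DUSP10, near background. In the genotype comparisons 5 and 6 of 9 were below 0, with medians of -0.06 and -0.09 beside 0.0080 and 0.0043. DUSP10 is counted in both, and DUSP2 in the untreated one.

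The 95% intervals say how large a change these arrays would still allow. For the 6 genes above background on all arrays, every interval of the fit without a block lay within 1 log2 unit of 0 in each of the 5 comparisons, so that a change of 1 log2 unit in normalized intensity lay outside each of them. Within 0.5 log2 units lay 3 of these 6 for conditioned medium in MEKK1+/+ cells, 3 in cells labelled MEKK1-/-, 3 between genotypes untreated, 4 with conditioned medium and 1, that of DUSP16, for the difference between responses. The widest were those of DUSP6, from -0.28 to 0.83 with conditioned medium in MEKK1+/+ cells, from -0.79 to 0.32 between untreated genotypes and from -0.76 to 0.82 for the difference between responses. The intervals of DUSP2, DUSP9 and DUSP10 describe intensities at or near background and bound no change of the transcript. For DUSP1 the interval ran from -0.42 to 0.15 in MEKK1+/+ cells and from -0.57 to 0.00 in cells labelled MEKK1-/-, where it ran from -0.43 to -0.13 in the blocked fit. In the values as deposited, where the median of all genes shifts by -0.28 with conditioned medium in MEKK1+/+ cells, the fitted changes of DUSP4, DUSP6, DUSP7, DUSP8 and DUSP16 there were below 0.

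**Figure D3:**
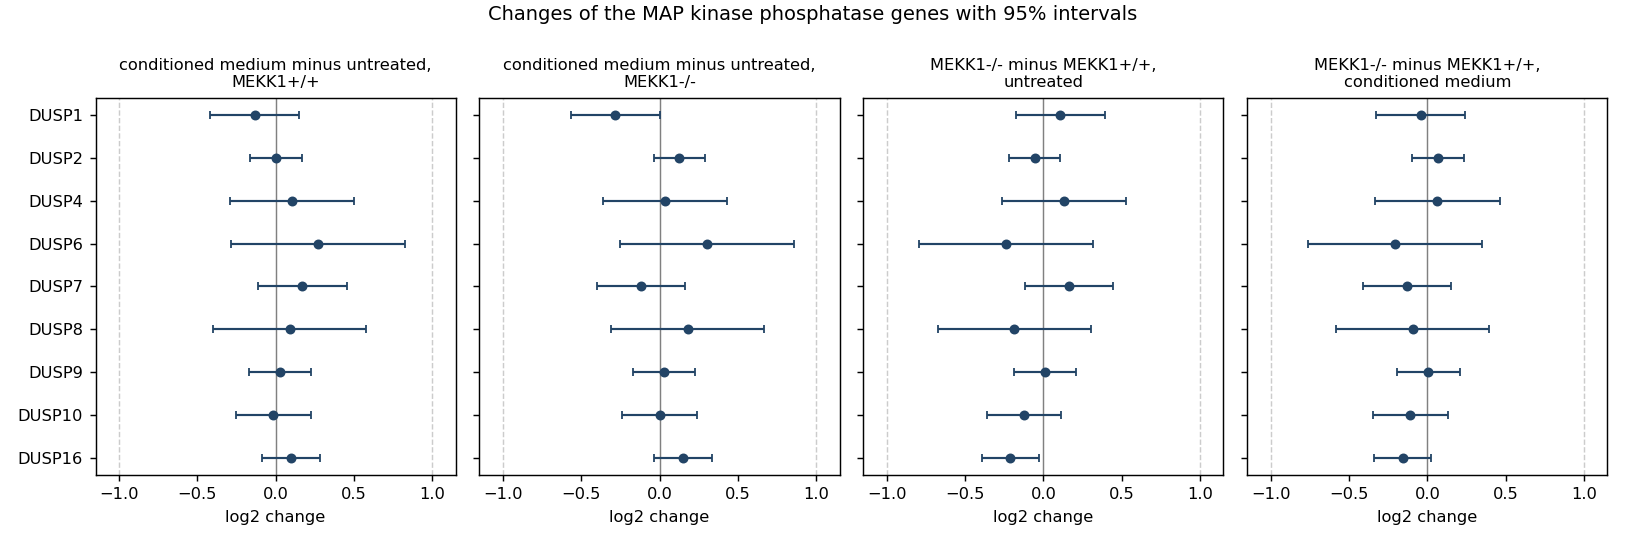
Log2 changes (x axis) of the 9 phosphatase genes in the 4 comparisons from limma on 16 arrays, as points with 95% intervals, with dashed lines at -1 and 1. In this fit, which has no replicate block, every interval lies between the dashed lines, and the interval of DUSP16 between untreated genotypes, from -0.40 to -0.03, is the 1 that excludes 0.

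DUSP6 varied from culture to culture together with the macrophage markers, in both genotypes. Over the 16 arrays its level followed the log2 summed level of the 16 macrophage markers with a Pearson r of 0.69 (permutation p = 0.0028, 0.101 adjusted over 36 relations of 6 members with 6 marker lists) and a Spearman rho of 0.78 (permutation p = 0.00058, adjusted p = 0.0209). Without the 2 arrays farthest from the median r was 0.71, after group means were removed it was 0.76, and within the 8 MEKK1+/+ and the 8 arrays labelled MEKK1-/- it was 0.80 and 0.71. The permutations treated all 16 arrays as independent, but the macrophage sum was close on arrays of the same replicate number in each genotype. For replicate 2 it was 13.86 and 13.55 in MEKK1+/+ cells and 14.88 and 14.72 on arrays labelled MEKK1-/-, untreated and exposed. These p-values may therefore be too small. The lowest DUSP6 value of untreated MEKK1+/+ cells, 8.38, was on the array with the lowest macrophage sum of that group, 13.86, and the highest of that group, 9.66, on the array with the highest, 15.50. The part of these markers in the level of DUSP6 was not tested. DUSP8 and DUSP16 had r of 0.53 and 0.62 and rho of 0.67 and 0.58 with the same sum, none past 0.05 after adjustment (adjusted p of 0.21 and 0.181 for r, 0.075 and 0.187 for rho). Relations with other lists did not pass either. DUSP16 had a rho of -0.70 with the epithelial sum (permutation p = 0.00389, adjusted p = 0.07) but an r of -0.15. DUSP6 had an r of 0.51 with the fibroblast sum (permutation p = 0.0434, adjusted p = 0.223) and a rho of 0.34.

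The macrophage markers also differed between the genotype groups, with a median log2 difference of -0.84 in untreated cells and -0.94 with conditioned medium, lower for 14 and 15 of 16 genes. Of the 16, 0 were called, in comparisons that called 0 and 1 of all 18132 genes. These markers had a limma unadjusted p under 0.05 for 9 and 7 of the 16, against 9.27% and 8.09% of all genes. Their summed level ran from 14874 to 46184 on untreated MEKK1+/+ arrays, from 11994 to 39394 with conditioned medium, and on arrays labelled MEKK1-/- from 6180 to 30146 untreated and from 5839 to 26940 with conditioned medium, so that the groups overlap. DUSP6 and DUSP16 had fitted genotype differences of the same sign, -0.24 and -0.21 in untreated cells and -0.21 and -0.16 with conditioned medium. The part of the macrophage markers in these differences was not tested.

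DUSP6 and DUSP16, enzymes with different preferred kinases, varied together. Their Pearson r over the 16 arrays was 0.71 (permutation p = 0.00181, 0.0271 adjusted over 15 pairs of members) and their Spearman rho was 0.66 (permutation p = 0.00726, adjusted p = 0.0544). Without the 2 arrays farthest from the median r was 0.65, within groups it was 0.64, and it was 0.64 in the 8 MEKK1+/+ arrays and 0.88 in the 8 labelled MEKK1-/-. DUSP6 and DUSP8 had an r of 0.54 (permutation p = 0.0316, adjusted p = 0.207) and a rho of 0.77 (permutation p = 0.00095, adjusted p = 0.0143). DUSP1 and DUSP6 had an r of 0.02 (permutation p = 0.937, adjusted p = 0.948) and a rho of 0.01 (permutation p = 0.987, adjusted p = 0.987), made of an r of 0.46 in the MEKK1+/+ arrays and of -0.88 in those labelled MEKK1-/-. The r of DUSP1 with DUSP6 over the 16 arrays depended on the scaling, at 0.54 in the values as deposited and 0.41 on median-centred arrays. Under these scalings the r of DUSP6 with DUSP16 was 0.82 and 0.82 and with DUSP8 0.74 and 0.70. Every pair had a higher r in the values as deposited. For DUSP1 with DUSP7 it was 0.71 there against -0.36, and for DUSP7 with DUSP16 0.69 against 0.05. The higher r of DUSP6 with DUSP16 and DUSP8 there is therefore not particular to them. These relations were chosen for description after their values were seen, and arrays from the same mice are not fully independent.

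**Figure D4:**
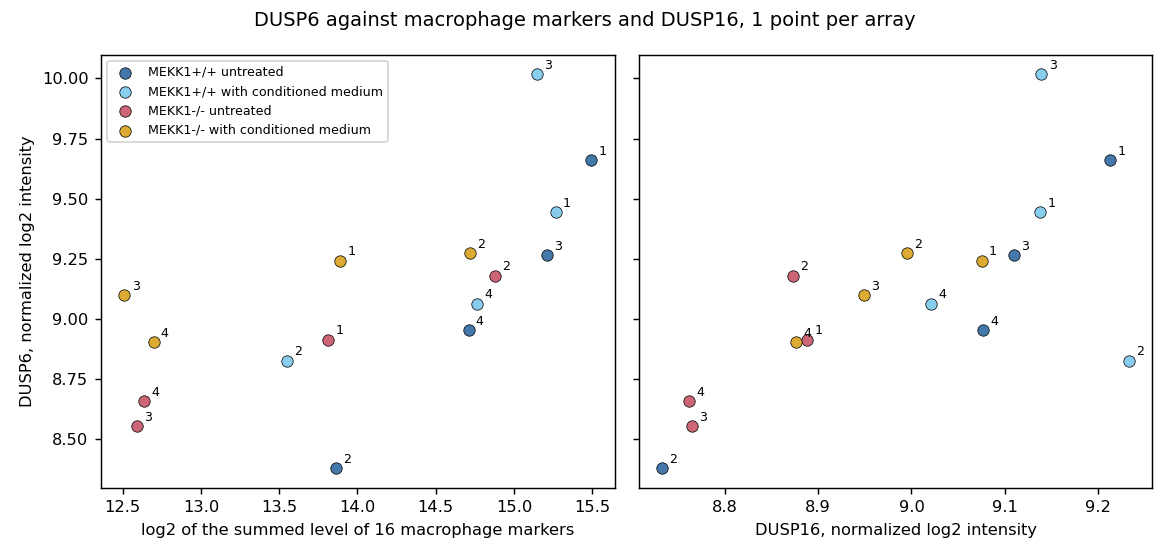
Normalized log2 intensity of DUSP6 (y axis) against the log2 summed level of 16 macrophage markers (left) and against the normalized log2 intensity of DUSP16 (right), with a point per array, colored by group and numbered by replicate. The arrays high in macrophage markers are high in DUSP6 (r = 0.69), and DUSP6 and DUSP16 rise together (r = 0.71).

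Genes around the phosphatases in the same pathway gave a setting for these values. Of 18 genes that ERK signaling induces as feedback or output, 16 were in the table, and conditioned medium raised 2 and lowered 0 in each genotype. Of all genes, 2.27% were called higher and 2.75% lower in MEKK1+/+ cells, and 2.18% and 2.51% in cells labelled MEKK1-/-. IER3, an immediate early gene of stress and growth signals, rose in both. It was at 13.21, 12.30, 13.17 and 13.87 on untreated MEKK1+/+ arrays and at 14.68, 13.69, 14.37 and 14.02 with conditioned medium. On arrays labelled MEKK1-/- it was at 13.32, 13.14, 12.69 and 12.42 untreated and at 14.39, 14.41, 13.98 and 14.13 with conditioned medium, with no overlap there. Its log2 change was 1.05 (standard error 0.29, limma adjusted p = 0.0483) and 1.34 (standard error 0.29, limma adjusted p = 0.0146). The first call was lost in 8 of 11 other settings and in 12 of 16 fits without 1 array, with a limma adjusted p up to 0.137.

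The other calls were small. ETV5, an ETS transcription factor downstream of ERK, rose by 0.62 in cells labelled MEKK1-/- (limma adjusted p = 0.0235) and had a change of 0.38 in MEKK1+/+ cells (limma adjusted p = 0.170). SPRY2, a feedback inhibitor of receptor signaling, rose by 0.21 in MEKK1+/+ cells (limma adjusted p = 0.0459) but was above background on 0 arrays, and its change was -0.04 in the values as deposited. ETV4, the close relative of ETV5, had changes of 0.69 and 0.71 that did not pass (limma adjusted p = 0.0592 and 0.0540). EGR1, an immediate early factor, had changes of 0.56 and 0.93 with a standard error of 0.54, and FOS, a component of AP-1, of -0.26 and -0.43 with one of 0.34. EGR2 had changes of 0.92 and 0.81 with a standard error of 0.40 (limma adjusted p = 0.252 and 0.343). The list had a median log2 change of 0.11 in MEKK1+/+ cells and 0.05 in cells labelled MEKK1-/-. Of its 16 genes in the table, 6 and 3 had a limma unadjusted p under 0.05, against 16.8% and 16.2% of all genes.

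All 17 MAP kinases and their direct activators were in the table. With conditioned medium 0 passed in MEKK1+/+ cells, and in cells labelled MEKK1-/- 2 rose and 0 fell. MAPK3, which encodes ERK1, rose by 0.46 (limma adjusted p = 0.0150), and MAPK11, which encodes a p38 isoform, rose by 0.40 (limma adjusted p = 0.0335). In MEKK1+/+ cells their changes were 0.20 and 0.35 (limma adjusted p = 0.341 and 0.0617), and the difference between genotypes did not pass for any gene of the list.

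The atypical dual-specificity phosphatases lack the kinase-binding domain of the MAP kinase phosphatases, and 13 of 14 were in the table. In MEKK1+/+ cells 1 rose and 2 fell with conditioned medium. DUSP28 fell by 0.64 (limma adjusted p = 0.0156). DUSP3, which dephosphorylates ERK and JNK, fell by 0.37 (limma adjusted p = 0.00747), and the call of DUSP3 held in all 11 other settings. It was at 7.78, 8.07, 8.03 and 7.93 untreated and at 7.65, 7.46, 7.62 and 7.60 with conditioned medium, with no overlap. DUSP18 rose by 0.34 (limma adjusted p = 0.0369) but was above background on 2 arrays. In cells labelled MEKK1-/- 1 rose and 0 fell: DUSP11, an RNA phosphatase, rose by 0.43 (limma adjusted p = 0.0225), while DUSP3 and DUSP28 had changes of -0.25 and -0.45 (limma adjusted p = 0.0553 and 0.0906). Of 8 other phosphatases of MAP kinases, among them PTPN7, PPM1A and PPP2CA, 0 passed in either genotype. Between genotypes and for the difference between responses, 0 genes of these 4 lists passed. Of 16 fits without 1 array, the call of SPRY2 was lost in 15, those of MAPK11 and DUSP18 in 7, those of ETV5 and DUSP11 in 5, that of IER3 in cells labelled MEKK1-/- in 2 and that of MAPK3 in 1, and those of DUSP3 and DUSP28 in 0. Other settings also ended calls. In the values as deposited, those of ETV5, MAPK3, MAPK11, DUSP11 and DUSP18 were lost (limma adjusted p = 0.198, 0.599, 0.811, 1.00 and 0.666). With only the 2 groups fitted, those of SPRY2, DUSP18 and DUSP28 were lost, the last at a limma adjusted p of 0.0664. In all, 3 of 11 settings ended the call of DUSP11, 2 of 11 that of MAPK11, 1 of 11 those of ETV5, MAPK3 and DUSP28, 3 of 10 those of DUSP18 and SPRY2 (beside the turn of sign of SPRY2 in the values as deposited), and 0 of 11 that of IER3 in cells labelled MEKK1-/-.

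**Figure D5:**
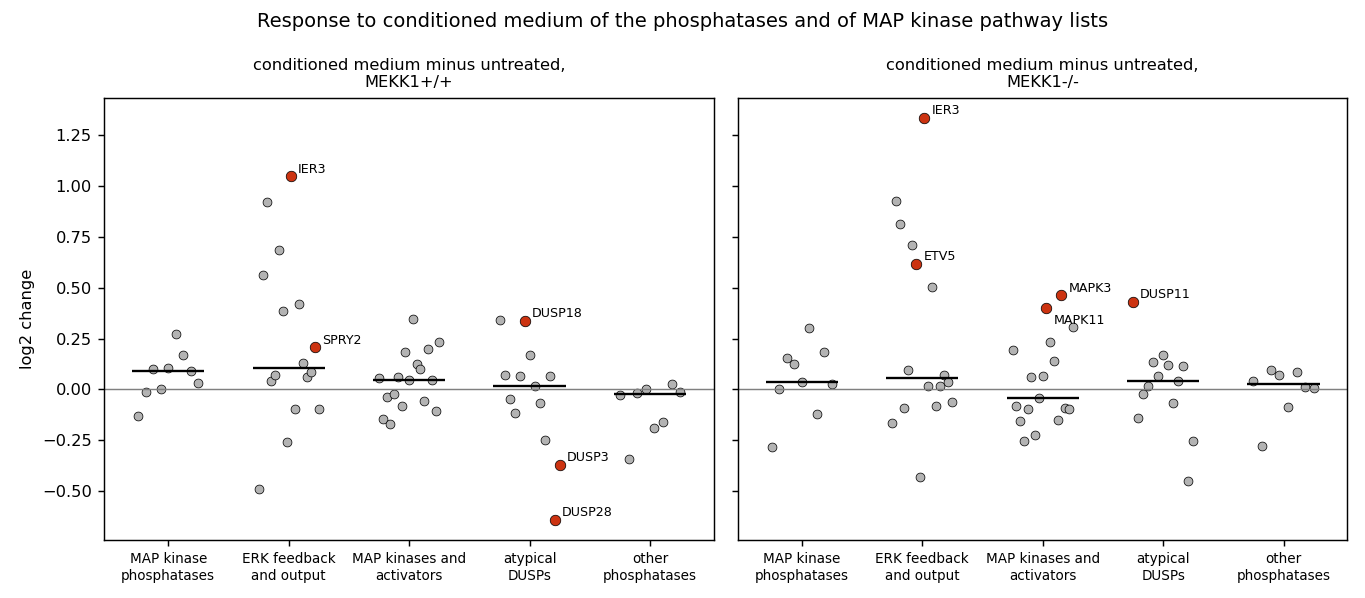
Log2 change with conditioned medium (y axis) of each gene of 5 lists in MEKK1+/+ cells (left) and in cells labelled MEKK1-/- (right), with the list median as a bar and genes with a limma adjusted p under 0.05 in red with their names. No MAP kinase phosphatase is red in either panel, and IER3 is the highest point in both, at 1.05 and 1.34.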

How the data were processed

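RNA from 16 cultures was hybridized to Illumina Mouse 8 arrays, 4 per group. Per the labels, the authors deposited intensity values that the core facility had normalized, on a linear scale, with 1 value for each of 18132 genes. The method of normalization, the background treatment and the handling of several probes of a gene are not given in the sources used here. Because array medians differed, log2 values were quantile normalized between arrays. All 16 arrays were fitted together with limma 3.58.1 (lmFit and eBayes, 12 residual degrees of freedom) in R 4.3.3, with Benjamini-Hochberg adjustment over all genes and a threshold of 0.05. Single values were also tested by 2-sided exact permutation of 4 arrays against 4, for which the smallest p is 0.0286, and correlations with 100000 permutations. The fit without a block was tested on simulated data, and the blocked fit was not. The number of arrays limits the precision. Correlations between arrays of a group ran from 0.978 to 0.996, and 0 columns were identical.

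Replicate numbers were checked as pairs from the correlation, across genes, of deviations from group means. For numbers 1 to 4 of the arrays labelled MEKK1-/-, this was 0.505, 0.403, 0.219 and 0.251 between untreated and exposed cultures, all over 0.1, so they were treated as pairs there, on the basis of the data and not of the labels. Between arrays of the same number and medium but different genotype, it ran from -0.575 to 0.234. The 0.219 of number 3 lies within that range, so the pairing is uncertain. For MEKK1+/+ arrays it was -0.04, 0.485, 0.120 and 0.576, which did not meet that rule. The blocked fit still used the replicate number as a block in both genotypes, so the MEKK1+/+ arrays also enter its standard errors.

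The phosphatase genes, the pathway lists and the marker lists were chosen with earlier results of these data known. Named outside the members are the genes of the 4 lists that passed the test, and others chosen after their values were seen, ETV4, EGR1, EGR2 and FOS among them. Upstream sequences were taken from RefSeq in build GRCm38.p6.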

Additional observations from a re-analysis of the deposited data

Results flagged for a closer look

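In cells labelled MEKK1-/- with conditioned medium, DUSP2 was at 7.25 on the array of replicate 1 and between 6.97 and 6.98 on the other 3, a gap of 0.946 of the range of the group against a critical ratio of 0.829. It was the 1 such value among 36 combinations of a member and a group, where chance gives about 5% of them. All 4 levels lay below the olfactory receptor level of their array, and this array is 1 of the 2 on which the epithelial and endothelial markers stood apart. The part of these markers in the DUSP2 value was not tested.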

How the results depend on the processing

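The count of phosphatase genes called stayed at 0 in each of the 5 comparisons under values as deposited, median-centred arrays, z-scores with limma, a filter on genes above the olfactory receptor level on at least 4 arrays (which drops DUSP2 and DUSP9), a pseudocount of 16, eBayes with trend and robust, fits restricted to each pair of groups (4 comparisons), a replicate block over all arrays (0 in all 5) and each array left out (from 0 to 0). For conditioned medium in cells labelled MEKK1-/-, it was 1, DUSP1, with a replicate block within genotype (adjusted p = 0.0279) and 1, DUSP1, by the z-test on z-scores (adjusted p = 0.0357), which called 2047 genes in all against 851. The block calls 1481 and 1438 genes for conditioned medium in the 2 genotypes, against 909 and 851 without it. Over all genes, the z-test called 1916, 817, 460 and 20 for conditioned medium in MEKK1+/+ cells, genotype untreated, genotype with conditioned medium and the interaction, against 909, 0, 1 and 0. Conditioned medium in cells labelled MEKK1-/- had 45 calls in the values as deposited and 463 on centred arrays, and in MEKK1+/+ cells 591 with only those groups fitted. The genotype comparison with conditioned medium had 7 calls on centred arrays, 0 with only those groups fitted and 2 without both arrays numbered 1, and the untreated one had 1 without them.

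Directions of changes that did not pass the test turned with the scaling. Values as deposited shift the median gene by -0.28 for conditioned medium in MEKK1+/+ cells, by 0.28 between genotypes with conditioned medium and by 0.29 for the interaction. In those values, conditioned medium in MEKK1+/+ cells gave -0.26 for DUSP4, -0.12 for DUSP6, -0.23 for DUSP7, -0.28 for DUSP8, -0.30 for DUSP16 and -0.040 for SPRY2. With median-centred arrays, DUSP16 gave -0.013 there. Between untreated genotypes, values as deposited and median-centred arrays gave -0.15 and -0.17 for DUSP1, -0.033 and -0.053 for DUSP4, and -0.079 and -0.099 for DUSP7. Between genotypes with conditioned medium, values as deposited gave 0.0013 for DUSP1 and 0.064 for DUSP8, and centred arrays gave -0.028 for DUSP4. For the interaction, values as deposited gave 0.15 for DUSP1, 0.31 for DUSP4 and 0.062 for DUSP7, and centred arrays gave 0.025 for DUSP4.

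Leaving out both arrays labelled MEKK1-/- and numbered 1, a setting chosen after seeing the data, gave -0.031 for DUSP4 with conditioned medium in cells labelled MEKK1-/- and -0.073 between genotypes with conditioned medium, and 0 members called in each comparison. Fits without 1 array turned the sign of 3, 2, 0, 8 and 13 of 96 values in the 5 comparisons, in the order conditioned medium in MEKK1+/+, conditioned medium in MEKK1-/-, genotype untreated, genotype with conditioned medium and interaction. Where a sign turned, the fits without 1 array ranged as follows. For conditioned medium in MEKK1+/+ cells, DUSP4 ranged from -0.055 to 0.22, DUSP8 from -0.18 to 0.33 and DUSP16 from -0.00066 to 0.16. For conditioned medium in cells labelled MEKK1-/-, DUSP4 ranged from -0.10 to 0.19. Between genotypes with conditioned medium, DUSP1 ranged from -0.11 to 0.071, DUSP4 from -0.073 to 0.22, DUSP6 from -0.38 to 0.018 and DUSP8 from -0.33 to 0.18. For the interaction, DUSP4 ranged from -0.21 to 0.090, DUSP6 from -0.17 to 0.26, DUSP8 from -0.14 to 0.36 and DUSP16 from -0.0075 to 0.15. The cause of these turns was not tested.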
